A study of Mus musculus with 20 samples.

Results

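Tubulin genes encode the alpha and beta subunits of microtubules, and 10 of them were followed here in dorsal root ganglia (DRG), which house the cell bodies of sensory neurons, 1 day after the sciatic nerve was cut. The members were 4 alpha-tubulin genes, Tuba1a, Tuba1b, Tuba1c and Tuba4a, and 6 beta-tubulin genes, Tubb2a, Tubb2b, Tubb3, Tubb4a, Tubb5 and Tubb6. They were taken by name after the gene identifiers of the deposited count table had been matched to mouse symbols. All 10 members were found among the 78258 genes of the table, of which 51487 had a symbol, and all 10 were among the 28564 genes with enough counts to be tested.

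The libraries came from 10 male mice, and each mouse gave 1 library from the contralateral ganglia (the side away from the lesion) and 1 from the ipsilateral ganglia (the lesioned side). Conditional knockout mice (cKO, 5 mice) carried floxed Ahr on both alleles together with Thy1CRE-ERT2/EYFP, a tamoxifen-activated Cre recombinase with a yellow fluorescent protein, driven by the promoter of the neuronal gene Thy1. Control mice (5 mice) were Ahr f/f or f/+, with no Cre named in their genotype. The titles of their samples say wild type, while their library names read ff. Ahr encodes the aryl hydrocarbon receptor, a ligand-activated transcription factor. Mice of both genotypes had been given tamoxifen at 100 mg/kg on each of 5 days from 17 weeks of age, and their nerves were cut 4 weeks after that treatment. Ganglia of lumbar levels 4 to 6 were pooled within a mouse and side, so cells in which the Thy1 promoter is silent were also part of every cKO library. The contralateral ganglia belonged to lesioned mice and were not from uninjured animals. A field of the sample labels names a spinal cord injury, whereas the protocol text describes a sciatic nerve transection, which was followed here.

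Microtubules are hollow polymers of alpha- and beta-tubulin pairs that carry transport along the axon and push out the growth cone when an axon regrows. The isotypes are nearly identical over most of their length and differ mainly in a short acidic tail at the carboxyl end. That tail faces the outside of the microtubule and takes up glutamate chains. Most alpha-tubulins end in a tyrosine that vasohibins remove and tubulin tyrosine ligase puts back. Peripheral axotomy is known to switch sensory neurons towards a growth state in which some tubulin genes of the developing nervous system are raised.

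The ends of 6 coding sequences are shown because most isotypes differ there, while those of Tubb2a and Tubb2b show how alike a pair can be. Each line gives the last 20 codons before the stop codon, 60 bases, from the mouse mm10 (GRCm38) genome with GENCODE M21 models, with glutamate codons (GAA or GAG) in capitals; all lie in exon 4 of 4.
Tuba4a, chr1:75215625-75215684, minus strand: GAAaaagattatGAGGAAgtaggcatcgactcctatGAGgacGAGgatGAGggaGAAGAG
Tubb2a, chr13:34074471-34074530, minus strand: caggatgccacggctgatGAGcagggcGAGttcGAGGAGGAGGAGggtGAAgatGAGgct
Tubb2b, chr13:34127474-34127533, minus strand: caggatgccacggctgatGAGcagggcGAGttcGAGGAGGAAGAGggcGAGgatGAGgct
Tubb3, chr8:123421620-123421679, plus strand: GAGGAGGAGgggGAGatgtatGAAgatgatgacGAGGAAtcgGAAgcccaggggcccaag
Tubb4a, chr17:57080693-57080752, minus strand: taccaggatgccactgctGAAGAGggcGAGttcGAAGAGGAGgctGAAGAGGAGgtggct
Tubb5, chr17:35834985-35835044, minus strand: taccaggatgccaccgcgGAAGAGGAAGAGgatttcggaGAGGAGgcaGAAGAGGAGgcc

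The 6 printed tails held 8 or 9 glutamate codons each. Tuba4a ended in a glutamate codon and Tubb3 in a lysine codon. The tails of Tubb2a and Tubb2b differed at 3 of 60 bases, with the same encoded amino acids. Over the whole coding sequence Tuba1a and Tuba1b were 98.3% identical, Tuba1b and Tuba1c 97.9%, and Tubb2a and Tubb2b 96.5%.

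This likeness bears on the counts, because the reads were 150 bases long. Of all 150-base windows of its transcript, Tuba1a shared 54.7% exactly with a transcript of another gene, Tuba1b 57.9% and Tuba1c 46.7%. The shares were 27.9% for Tubb2a and 20.1% for Tubb2b, and 0% for Tuba4a, Tubb3, Tubb4a, Tubb5 and Tubb6. These windows stand for single reads, whereas the reads came in pairs, and a pair can reach outside a shared stretch. How the authors' counting treated reads that fit several genes is not given in the sources used here, so the split of counts within Tuba1a, Tuba1b and Tuba1c and between Tubb2a and Tubb2b is uncertain.

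Library totals ran from 76.2 to 118.5 M counts (M, mega), and the members had between 1198 counts (Tubb6) and 179536 counts (Tubb3) in a library, so the spread between mice rather than depth set the precision. Levels are given as CPM, counts relative to the library's total count after TMM scaling, and, where genes are compared with each other, as CPM per kilobase of merged exons. Atf3, a transcription factor induced by axotomy, was at 11.4 ± 1.81 CPM contralaterally and 426.5 ± 12.8 CPM ipsilaterally in control mice (SD, n = 5), and at 9.24 ± 0.630 and 416.9 ± 40.0 CPM in cKO mice. Ahr, the targeted gene, was counted over the whole gene and not over the floxed part alone. It stood at 24.2 ± 2.10 CPM contralaterally and 34.4 ± 2.86 CPM ipsilaterally in control mice, against 20.4 ± 0.536 and 31.9 ± 2.94 CPM in cKO mice, and neither genotype difference passed the test (log2 fold change -0.25, SE 0.0661, adjusted p 0.103, and -0.11, SE 0.0655, adjusted p 0.99996, edgeR). Contralaterally all 5 cKO libraries (19.5 to 21.0 CPM) lay below all 5 control libraries (21.3 to 27.2 CPM). Ipsilaterally the ranges overlapped (28.9 to 36.8 CPM in cKO and 30.2 to 38.1 CPM in control mice). Loss of the floxed part was not measured, so the genotype comparisons compare mice by their labels.

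In the contralateral ganglia of control mice the order of levels per kilobase was led by Tubb3, the beta-tubulin typical of neurons, at 856 ± 59.8 CPM per kb. Tuba1a, a main alpha-tubulin of developing and regenerating neurons, followed at 533 ± 35.8 CPM per kb. Then came Tubb2a at 319 ± 12.1, Tubb5 at 290.5 ± 13.3 and Tubb4a at 278 ± 16.4 CPM per kb, neighbours whose library ranges overlapped. Tuba1b (224 ± 16.4), Tubb2b (164 ± 3.12), Tuba1c (111 ± 5.77) and Tuba4a (80.2 ± 5.03 CPM per kb) each lay below the range of the gene before. Tubb6 was the lowest member at 5.97 ± 0.192 CPM per kb, so that Tubb3 had 143 times its level.

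The rank order of the 10 members was the same in all 4 groups. Ipsilaterally the ranges of Tubb2a and Tubb5 no longer overlapped in either genotype, and Tubb3 had 48.5 times the level per kb of Tubb6 in control mice and 44.4 times in cKO mice, against 131 times in the contralateral ganglia of cKO mice. After TMM scaling, the members together held 0.602% of the scaled counts contralaterally and 0.640% ipsilaterally in control mice. In cKO mice they held 0.594% and 0.615%. The scaling enters these values, so they are not shares of the raw counts.

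Ipsilaterally the mRNA of 3 beta-tubulins was higher in both genotypes, Tubb6 about 3-fold and Tubb2b and Tubb2a by 10.5 to 26.3%, while the most abundant isotypes, Tubb3 and Tuba1a, did not pass the test. In control mice 4 of 10 members were higher ipsilaterally (Tubb6, Tubb2b, Tuba1c and Tubb2a) and 0 were lower, at an adjusted p under 0.05 in edgeR's quasi-likelihood test over all tested genes. Of all tested genes, 29.9% were called in this comparison (13.8% higher and 16.0% lower). In cKO mice 3 of 10 members were higher (Tubb6, Tubb2b and Tubb2a) and 0 lower, where 31.3% of all genes were called (16.2% higher and 15.1% lower). Called higher in both genotypes were 3 of 10 members and 11.4% of all tested genes. At an unadjusted p under 0.05 in edgeR, 6 members passed in control and 4 in cKO mice, each with a higher ipsilateral level, where 38.6% and 40.6% of all tested genes did. DESeq2 called 5 and 4 members, and 30.4% and 32.3% of all genes. The median log2 fold change of the members was 0.10 in control and 0.02 in cKO mice, beside -0.00 and -0.03 over all tested genes. The members are a family chosen with results of these data known, so these counts are a description.

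**Figure D1:**
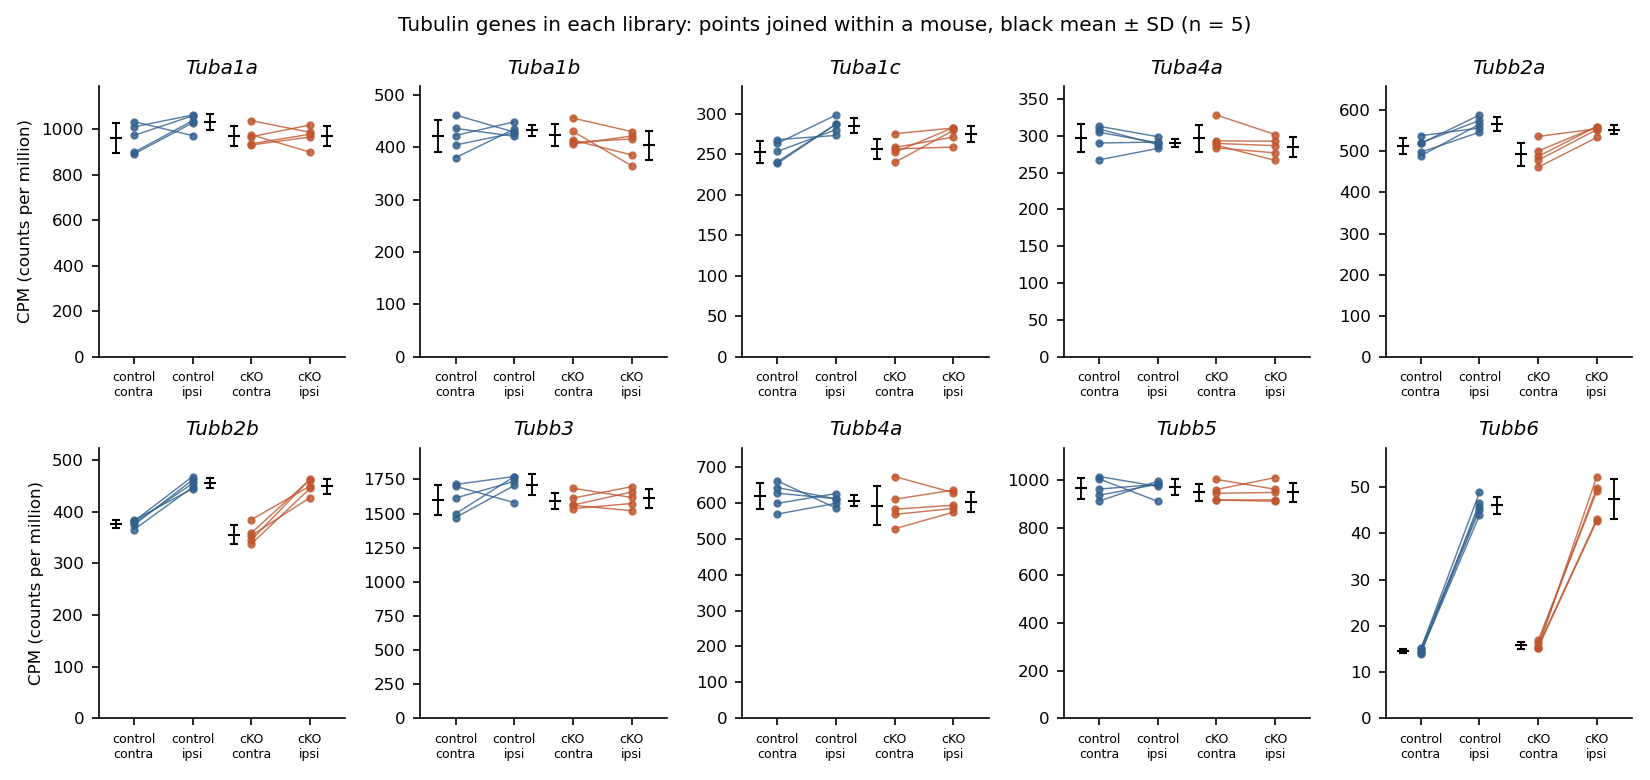
Level of each member in CPM (vertical axis, from 0) in all 20 libraries, by genotype and side on the horizontal axis. Points of 1 mouse are joined and black marks give the mean ± SD of 5 libraries. Tubb6 is 2.78 to 3.44 times higher ipsilaterally in the 10 mice and Tubb2b is higher in all 10, while the sides overlap for Tubb5 and Tuba4a in both genotypes.

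Tubb6, a beta-tubulin of low abundance in neurons, had the largest fold change of the members. Contralaterally it was at 14.4, 14.9, 14.0, 14.2 and 15.1 CPM in control mice H62, H63, H65, H96 and H97. Ipsilaterally the same mice had 45.1, 48.9, 46.6, 43.9 and 45.8 CPM. The lowest ipsilateral library thus lay far above the highest contralateral one, and the fitted change was 3.17-fold (log2 1.66, SE 0.0519, adjusted p 2.99606e-15, edgeR).

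In cKO mice H61, H64, H95, H99 and H100, Tubb6 was at 16.2, 15.2, 16.8, 15.5 and 15.3 CPM contralaterally. Ipsilaterally it was at 49.9, 52.3, 49.1, 43.1 and 42.7 CPM. The groups again did not overlap, although H99 and H100 stayed lower than the other three cKO mice. The fitted log2 change was 1.59 (SE 0.0517, adjusted p 5.09566e-15, edgeR). Within single mice the ratio of the sides ran from 3.02 to 3.33 in control mice and from 2.78 to 3.44 in cKO mice. Of all tested genes, 1.99% were called in both injury comparisons with a log2 fold change of at least 1, and Tubb6 was the member among them.

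Tubb2b, a beta-tubulin prominent in the developing nervous system, rose by a smaller fold from a far higher level. Control mice H62, H63, H65, H96 and H97 had 381, 378, 374, 365 and 383 CPM contralaterally and 468, 455, 462, 448 and 445 CPM ipsilaterally. cKO mice H61, H64, H95, H99 and H100 had 354, 337, 345, 385 and 359 CPM contralaterally and 427, 445, 463, 449.7 and 462 CPM ipsilaterally. Every ipsilateral library was above every contralateral one in both genotypes. Such separation upwards was seen in 11.3% of all tested genes in control and in 11.9% in cKO mice. The log2 fold change was 0.27 in control mice (SE 0.0326, adjusted p 1.32367e-06) and 0.34 in cKO mice (SE 0.0326, adjusted p 6.82986e-08, edgeR).

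Tubb2a, the near-twin of Tubb2b and a major beta-tubulin of adult neurons, rose less in proportion. Its 5 control libraries had 489, 519, 520.5, 498 and 538 CPM contralaterally and 566, 588, 575, 547 and 557 CPM ipsilaterally, in the order H62, H63, H65, H96 and H97. In the order H61, H64, H95, H99 and H100 the cKO libraries had 501, 461, 478, 536 and 488 CPM contralaterally and 560.0, 534, 553, 555 and 560.4 CPM ipsilaterally. The sides did not overlap in control mice, and in cKO mice only contralateral H99 reached into the ipsilateral range; each of the 10 mice was higher ipsilaterally. The log2 fold change was 0.14 (SE 0.0364, adjusted p 0.00449) in control and 0.16 (SE 0.0364, adjusted p 0.00144) in cKO mice by edgeR.

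In CPM, Tubb6 gained the least of these 3 genes. The mean gain per mouse was 78.9 ± 10.6 CPM for Tubb2b, 53.6 ± 22.4 CPM for Tubb2a and 31.5 ± 1.74 CPM for Tubb6 in control mice (SD, n = 5). In cKO mice it was 93.5 ± 22.9, 59.5 ± 23.6 and 31.6 ± 4.14 CPM. Gains in CPM are not corrected for gene length. Per kb, the control means went from 164 to 198.5 for Tubb2b, from 319 to 352 for Tubb2a and from 5.97 to 18.9 for Tubb6. In cKO mice they went from 155 to 196, from 306 to 343 and from 6.48 to 19.5 CPM per kb.

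The shared sequence of Tubb2a and Tubb2b extends to a pseudogene, Tubb2a-ps2. Its counts were 1.16 to 1.54% of those of Tubb2a and were also called higher, with a log2 fold change of 0.26 in control mice (adjusted p 0.00425) and 0.36 in cKO mice (adjusted p 0.000253, edgeR). A single read that lies wholly in a common stretch fits more than 1 of the 3 genes, although the other read of its pair may not. How much of each rise belongs to a neighbour was not tested.

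Of the 4 alpha members, Tuba1c was the one called, in control mice. Its control libraries stood at 239, 264, 254, 241 and 268 CPM contralaterally and 287, 299, 281, 287 and 273 CPM ipsilaterally (H62, H63, H65, H96 and H97). The sides did not overlap, and the log2 fold change was 0.17 (SE 0.0395, adjusted p 0.00180, edgeR).

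In cKO mice Tuba1c stood at 240.1, 257, 259, 276 and 252 CPM contralaterally and at 279.7, 259, 272, 283 and 283 CPM ipsilaterally (H61, H64, H95, H99 and H100). All 5 mice were higher ipsilaterally, but H64 and H99 by 1.01 and 1.03 times, and the sides overlapped. The log2 fold change of 0.10 (SE 0.0395, adjusted p 0.0585, edgeR) missed the threshold. It passed under 8 of 19 other settings, among them DESeq2, and the difference between the genotypes in this response did not pass (interaction log2 -0.07, SE 0.0559, adjusted p 0.666, edgeR).

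The 2 most abundant isotypes did not pass the test in either genotype. Tuba1a had 898, 1010.0, 972, 891 and 1033 CPM contralaterally and 1037, 1062, 1059, 1028 and 972 CPM ipsilaterally in control mice H62, H63, H65, H96 and H97. It was higher ipsilaterally in 4 of 5 mice and lower in H97, and the sides overlapped. The log2 fold change was 0.10 with a 95% interval from 0.01 to 0.20 (adjusted p 0.0964, edgeR), where the interval is for this gene alone and the p is adjusted over all genes. In cKO mice the means were 969 ± 42.9 and 969.5 ± 43.7 CPM, with a log2 fold change of 0.00 and an interval from -0.10 to 0.10.

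Tubb3 followed the same pattern over the libraries. It had 1499, 1714, 1614, 1471 and 1700.0 CPM contralaterally and 1771, 1772, 1736, 1706 and 1580.2 CPM ipsilaterally in the control mice in that order. The log2 fold change was 0.10 (interval -0.00 to 0.20, adjusted p 0.124) in control and 0.02 (interval -0.08 to 0.12, adjusted p 0.804, edgeR) in cKO mice. Again H97 went down while the other 4 control mice went up. Without mouse H97 the control difference passed the threshold for both Tubb3 (log2 fold change 0.16, adjusted p 0.0117) and Tuba1a (log2 fold change 0.17, adjusted p 0.00957, edgeR). Without H62 the value of Tubb3 was 0.06. Tuba1a also passed without cKO mouse H95 and, with all mice, under DESeq2 and under a filter at a mean CPM of 1, whereas Tubb3 passed under no other alternative.

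The other 4 members did not pass in either genotype. Tubb5, a beta-tubulin found in most cell types, had means of 966 and 969 CPM on the 2 sides in control mice and 948 and 950.1 CPM in cKO mice. Its log2 fold changes were 0.00 in both, with intervals from -0.08 to 0.09 and from -0.08 to 0.08. Changes of more than about 0.09 on the log2 scale were thus outside the interval for this gene in the fit with all mice. Without H97 the control value of Tubb5 was 0.0552. For Tuba1b the log2 fold changes were 0.04 (interval -0.07 to 0.14) in control and -0.07 (interval -0.17 to 0.04) in cKO mice. The control value of Tuba1b ran from 0.0015 without H62 to 0.09 without H97, and its cKO value was -0.03 without H64. Tuba4a, which lacks the final tyrosine codon, had -0.03 (interval -0.13 to 0.06) and -0.06 (interval -0.15 to 0.04), and Tubb4a had -0.03 (interval -0.14 to 0.08) and 0.03 (interval -0.08 to 0.14).

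**Figure D2:**
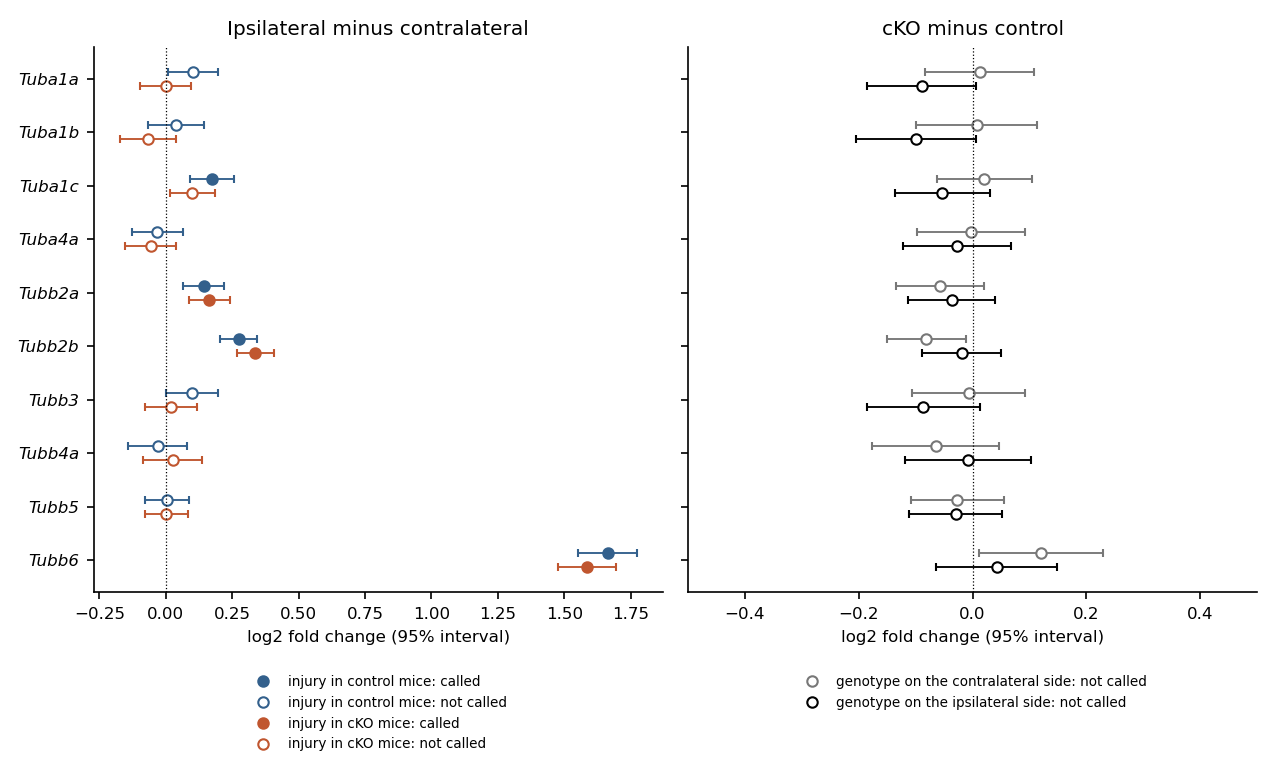
Log2 fold changes of the 10 members with 95% intervals (horizontal axis) from the edgeR fit over 20 libraries. The left panel gives ipsilateral minus contralateral for each genotype, and the right panel gives cKO minus control for each side. Filled points passed an adjusted p under 0.05 and open points did not. Tubb6 stands apart at 1.66 and 1.59, and every genotype point on the right is open.

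Whole ganglia were measured, so a change in the number of cells of a type cannot be told apart from a change in RNA per cell. Of 15 listed markers of sensory neurons, 0 were higher and 5 lower ipsilaterally in control mice, and 0 were higher and 4 lower in cKO mice (adjusted p under 0.05). Their summed level ran from 8527 to 9671 CPM contralaterally and from 8338 to 9049 CPM ipsilaterally in control mice, and from 8402 to 9681 and from 8096 to 8626 CPM in cKO mice. Of 6 satellite glia markers, 3 were higher in control and 2 in cKO mice. Their sum lay between 1045 and 1138 CPM contralaterally and between 1232 and 1372 CPM ipsilaterally in control mice, and between 1013 and 1235 and between 1209.5 and 1242 CPM in cKO mice. Of 8 macrophage markers, 1 was higher in control mice (Mrc1) and 0 in cKO mice, with sums of 76.1 to 139 and 86.1 to 168 CPM in control and 77.1 to 189 and 111 to 190.0 CPM in cKO mice. Of 6 endothelial markers, 2 were higher in control mice (Flt1 and Tek) and 0 in cKO mice, with sums of 88.5 to 129 and 105 to 154 CPM in control and 104 to 154 and 117 to 139 CPM in cKO mice. In the lists for Schwann cells, neutrophils, fibroblasts, platelets and erythroid cells, muscle and cycling cells, 0 markers were called in either injury comparison. Beside these counts, 13.8% of all tested genes were called higher and 16.0% lower in control mice, and 16.2% and 15.1% in cKO mice. All markers of the lists passed the filter on low counts. The part of these shifts in the tubulin results was not tested.

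Isotype shares describe the make-up of each class, as the level per kb of a member over the summed level per kb of the alpha or the beta members. In the contralateral ganglia of control mice the alpha class was 56.2 ± 0.643% Tuba1a, 23.7 ± 0.626% Tuba1b, 11.7 ± 0.179% Tuba1c and 8.46 ± 0.247% Tuba4a (SD, n = 5). The beta class was 44.7 ± 0.825% Tubb3, 16.7 ± 0.380% Tubb2a, 15.2 ± 0.209% Tubb5, 14.5 ± 0.319% Tubb4a, 8.59 ± 0.395% Tubb2b and 0.312 ± 0.0121% Tubb6. The level and order of the shares depended on the length used. Without any length Tuba4a was at 15.4%, above Tuba1c at 13.1%, and Tubb5 at 23.6%. With the longest transcript, Tubb5 at 18.3% was above Tubb2a at 16.0%. From the deposited FPKM, which divides by the gene span, Tubb5 at 31.9% was above Tubb3 at 21.8%, with Tubb2b at 14.7%, Tuba1c at 6.61% and Tubb6 at 0.175%. Shares of a class sum to 100%, so a rise of one member lowers the others.

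**Figure D3:**
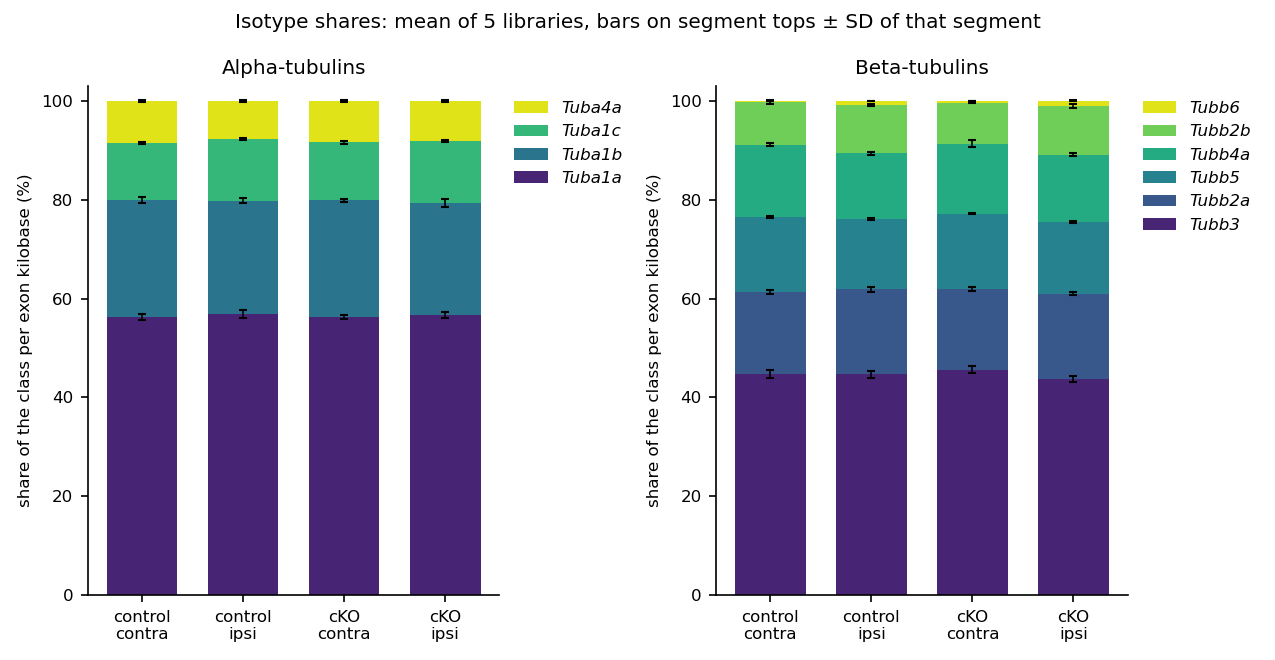
Share of each member in its class, in percent of the summed level per exon kilobase (vertical axis), for the 4 groups on the horizontal axis. Segments are means of 5 libraries and the bars on their tops are the SD of that segment. The alpha and beta make-up is nearly the same in all 4 groups, with Tubb6 at 0.312 and 0.922% in control mice and at 0.347 and 0.986% in cKO mice.

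The same 4 shares moved one way in all 10 mice. Tubb6 rose to 0.922 ± 0.0390% of the beta class in control mice and from 0.347 ± 0.0254% to 0.986 ± 0.117% in cKO mice. Its gain in a mouse was 0.557 to 0.659 percentage points in control and 0.518 to 0.786 points in cKO mice. Tubb2b rose to 9.69 ± 0.214% in control mice and from 8.29 ± 0.0453% to 9.91 ± 0.412% in cKO mice, by 0.624 to 1.70 and by 1.02 to 2.05 points in single mice.

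Tuba1c rose to 12.4 ± 0.178% of the alpha class in control mice and from 11.7 ± 0.322% to 12.7 ± 0.206% in cKO mice. The gain in a mouse was 0.551 to 0.884 points in control and 0.189 to 1.52 points in cKO mice, and the share ranges of the sides did not overlap in either genotype. Tubb5 fell as a share in all 10 mice, to 14.2 ± 0.253% in control mice and from 15.2 ± 0.162% to 14.4 ± 0.206% in cKO mice. Its own CPM differed by 0.310% and 0.173% between the sides in the fit. The 4 directions were also found in all 10 mice with transcript lengths in place of exon lengths, with no length, with all other alpha and beta tubulins in the pools, and from the deposited FPKM.

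The other 6 shares were less uniform. Tuba1a gained share in 3 of 5 control and 4 of 5 cKO mice, and Tuba1b in 1 of 5 mice of each genotype. Tubb2a gained share in 4 of 5 control mice and in 5 of 5 cKO mice, where the ranges of the sides did not overlap. Tubb3 lost share in 5 of 5 cKO mice, with changes of -0.596 to -3.72 points, from 45.6 ± 0.731% to 43.6 ± 0.606%. In control mice its share rose in 2 of 5 mice and fell in the other three, with means of 44.7% on both sides. Tubb4a changed by -1.16 to -1.39 points in the 5 control mice, from 14.5% to 13.3%, while in cKO mice 4 of 5 fell and H64 gained 0.357 points. Tuba4a fell in 5 of 5 control mice, from 8.46 ± 0.247% to 7.80 ± 0.180%, and in 4 of 5 cKO mice. These genotype contrasts in share were not tested.

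**Figure D4:**
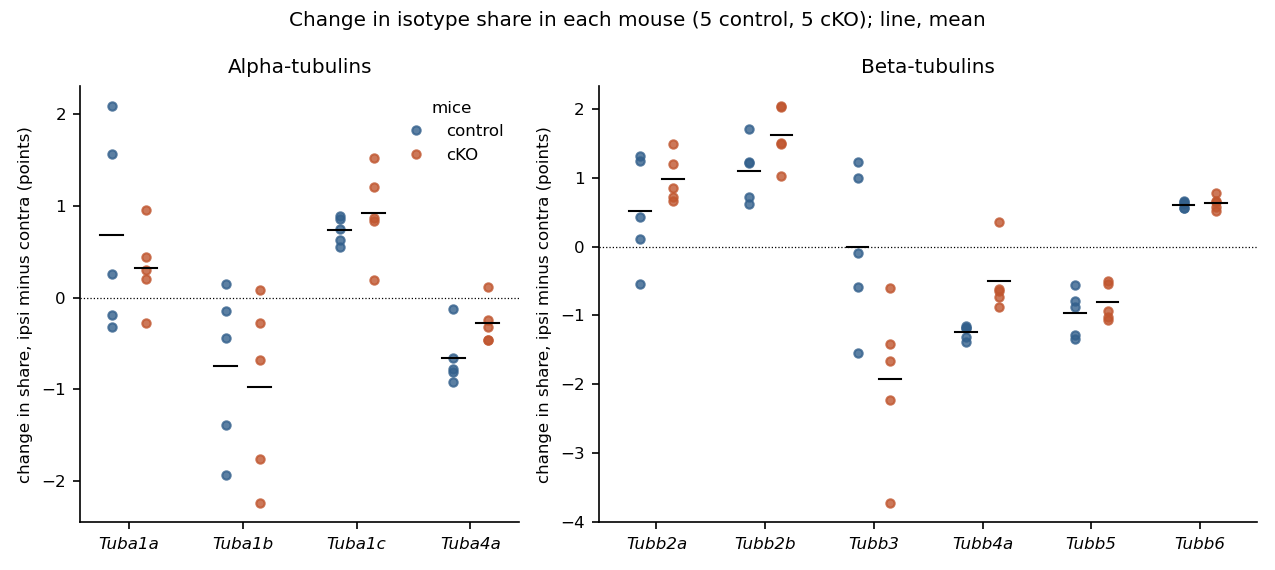
Change in isotype share, ipsilateral minus contralateral, in percentage points (vertical axis) for each member (horizontal axis). Each point is a mouse, 5 control and 5 cKO, and the line is the mean of a genotype. All 10 points lie above 0 for Tuba1c, Tubb2b and Tubb6 and all 10 lie below 0 for Tubb5, while Tuba1a and Tubb3 scatter on both sides of 0 in control mice.

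The summed level of the 4 alpha members went from 1931 ± 122 to 2039 ± 52.1 CPM in control mice and from 1945 ± 89.7 to 1933 ± 86.7 CPM in cKO mice. The 6 beta members together had 4089 ± 210.2 CPM contralaterally and 4357 ± 134 CPM ipsilaterally in control mice, and 3997 ± 190.0 and 4216 ± 139 CPM in cKO mice. By the mean log2 ratio of the sides within a mouse, the whole pool of 10 members was 6.33% higher ipsilaterally in control mice, with single mice from -4.53% (H97) to 14.1%, and 3.51% higher in cKO mice, from -2.17% to 7.52%. In each genotype 4 of 5 mice were higher and the ranges of the sides overlapped. On the scale of CPM per kb, the ratio of the beta sum to the alpha sum was higher ipsilaterally in 5 of 5 cKO mice, with means of 1.96 ± 0.0590 and 2.08 ± 0.0491 on the contralateral and ipsilateral sides. In control mice it was higher in 3 of 5, with means of 2.02 ± 0.0353 and 2.04 ± 0.0230. The ratio rose by 3.84 to 15.7% in single cKO mice, with H64 the highest, and changed by -0.761 to 2.68% in single control mice. No test was made on these sums, because the members had been chosen with results of these data known.

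The title of the study names a restriction of DRG axon regeneration by Ahr, and the genotype comparisons ask whether tubulin mRNA differed between cKO and control mice. On the contralateral side 0 of 10 members were called, where 0.0735% of all tested genes were. On the ipsilateral side 0 of 10 were called, beside 0.007% of all genes. For the interaction, the difference between genotypes in the response to the lesion, 0 of 10 members and 0.0% of all genes were called. At an unadjusted p under 0.05 in edgeR the member counts were 2, 0 and 0, beside 17.5%, 2.36% and 9.8% of all genes. DESeq2 also called 0 members in each of the 3 comparisons, and 3.61%, 0.0105% and 0.0385% of all genes. The contralateral edgeR count over all genes, 21 with all mice, depended on single mice. It was 3326 of 28818 genes (11.5%) without cKO mouse H99 and 174 without H61, and it ran from 4 (without H95) to 22 (without H62) when any other mouse was left out. The interaction count over all genes was 43 of 28818 without H99, with 0 members among them.

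Tubb6 came nearest to a genotype difference by its ranges. All 5 contralateral cKO libraries, at 15.2 to 16.8 CPM, lay above all 5 contralateral control libraries, at 14.0 to 15.1 CPM. That pattern was met by 0.448% of all tested genes in this comparison. The log2 fold change was 0.12 (interval 0.01 to 0.23, adjusted p 0.231, edgeR) and did not pass. The summed level of 6 fibroblast markers was 935 to 2236 CPM (median 1685) in those cKO libraries and 802 to 1356 CPM (median 838) in the control libraries, with overlapping ranges, and its part in the Tubb6 value was not tested. Ipsilaterally the ranges of Tubb6 overlapped, with a log2 fold change of 0.04 (interval -0.06 to 0.15). The interaction was -0.08 (interval -0.23 to 0.07, adjusted p 0.728, edgeR). With all mice, a difference in the Tubb6 response of more than about 0.23 on the log2 scale thus lay outside the interval. Over 18 alternatives the Tubb6 interaction value ran from -0.13 to -0.04, and the limit of the interval moves with that value.

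Tubb2b was lower in cKO mice contralaterally by a small amount, with a log2 fold change of -0.08 (interval -0.15 to -0.01, adjusted p 0.207, edgeR). Without cKO mouse H99, whose contralateral library was the highest of its group, the value was -0.11 and the adjusted p 0.0229. Tubb2b was then the 1 of 10 members called between the genotypes, where 11.5% of all genes were. On the ipsilateral side the log2 fold change of Tubb2b was -0.02 (interval -0.09 to 0.05), and the interaction was 0.06 (interval -0.04 to 0.16). Over 18 alternatives the Tubb2b interaction ran from 0.03 to 0.09.

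The largest ipsilateral genotype values were those of Tuba1b, Tuba1a and Tubb3. Tuba1b was at -0.10 (interval -0.20 to 0.01), Tuba1a at -0.09 (interval -0.19 to 0.01) and Tubb3 at -0.09 (interval -0.19 to 0.01) on the log2 scale, each with an adjusted p of 0.99996 in edgeR. The remaining members lay between -0.05 and -0.01 on that side, apart from Tubb6 at 0.04. No share of a member separated the genotypes on either side, since the ranges of the shares overlapped in all 20 comparisons.

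The members varied together over the 20 libraries to different degrees. Pearson's r between Tuba1a and Tubb3, over log2 CPM, was 0.955, while r between Tubb3 and Tubb6 was 0.362 and between Tuba1a and Tubb6 0.320. These are descriptions over libraries that share mice, sides and scaling. The genes most alike to each member were looked up among 11904 other genes. For Tubb3 they were Ywhah, a member of the 14-3-3 family (r 0.984), and Pkm, the glycolytic pyruvate kinase (r 0.968), and Ywhah was also nearest to Tuba1a (r 0.957), before the clone-named gene AC157548.1 (r 0.956).

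Tubb6 was most like Mapkbp1 (r 0.997) and Rcc1, the exchange factor of the nuclear GTPase Ran (r 0.996), and Tubb2b was most like Csnk1d, a casein kinase (r 0.979), and Acsl4, an acyl-CoA synthetase (r 0.978). Tubb2a was most like Maged1 (r 0.953) and Capn2, a calpain protease (r 0.950). For members called in neither injury comparison, the nearest genes were Psap (r 0.956) and Hsp90ab1 (r 0.932) for Tubb5, Susd2 (r 0.925) and Ncdn (r 0.921) for Tubb4a, and Faim2 and Ckmt1 (both r 0.882) for Tuba4a. Tuba1c was nearest to Ctsd (r 0.914) and Myl12b (r 0.879). Tuba1b had the weakest likeness, with Snurf (r 0.784) and Nefm, a neurofilament subunit (r 0.767).

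The promoter table of RefSeq (GRCm38.p6; 250 bases before to 50 after each start) held 8 of the 10 members, without Tubb2b and Tubb6. The AP-1 motif TGANTCA, searched on both strands, was found in 0 of the 8 and in 7.81% of all 32851 promoters. The full cyclic AMP response element TGACGTCA was found in 1 of the 8, Tubb2a, and in 1.79% of all promoters. Its shorter core TGACG, which the full element contains, was found in 4 of the 8 (Tuba1c, Tuba4a, Tubb2a and Tubb4a) and in 20.8% of all promoters, and Tuba4a and Tubb4a were called in neither injury comparison. The E-box CANNTG was found in 6 of the 8 and in 72.3% of all promoters. The stretch around the full cyclic AMP response element of Tubb2a is shown because Tubb2a rose in both genotypes. Capitals mark TGACGTCA, which begins 59 bases before the start. The window was picked after the match was seen.
Tubb2a, chr13:34078034-34078093, minus strand: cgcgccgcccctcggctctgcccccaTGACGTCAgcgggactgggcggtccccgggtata
A match of letters describes the sequence and is no evidence of a bound factor.

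Of the tubulins outside the 10 members, those that passed the test were lower ipsilaterally. Of 10 other tubulin genes 7 could be tested, and 0 were higher and 3 lower in control mice (Tubg1, Tubg2 and Tube1), as in cKO mice (Tubg1, Tubg2 and Tuba8). For comparison, 13.8% of all tested genes were called higher and 16.0% lower in control mice, and 16.2% and 15.1% in cKO mice. The gamma-tubulins, which seed new microtubules, fell together: Tubg1 from 60.1 ± 2.44 to 51.8 ± 1.48 CPM and Tubg2 from 52.6 ± 1.57 to 45.0 ± 1.21 CPM in control mice. Their log2 fold changes were -0.21 and -0.23 in control mice (adjusted p 2.92488e-05 and 2.238e-05) and -0.18 and -0.20 in cKO mice (adjusted p 0.000269 and 6.7506e-05, edgeR).

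Tubb4b is a widely expressed beta-tubulin that is not among the 10 members but was as abundant per kb as Tubb5. It had 625 ± 31.2 CPM contralaterally and 593 ± 20.1 CPM ipsilaterally in control mice, and 610.4 ± 21.3 and 569 ± 26.6 CPM in cKO mice. Neither difference passed (log2 -0.08, adjusted p 0.163, and -0.10, adjusted p 0.0548, edgeR). With Tubb4b and Tubb1 in the beta pool, Tubb4b made up 13.5 ± 0.0763% contralaterally and 12.2 ± 0.162% ipsilaterally in control mice, and 13.5 ± 0.193% and 12.1 ± 0.217% in cKO mice. Its counts also lie partly in sequence shared with the pseudogene Tubb4b-ps1, which had 8.80 to 10.7% as many counts.

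Among 22 listed genes of tubulin modification 21 could be tested, and 5 were higher and 3 lower in control mice and 8 higher and 3 lower in cKO mice. Over all tested genes, 13.8% were higher and 16.0% lower in control mice, and 16.2% and 15.1% in cKO mice. Vash2, a vasohibin that removes the last tyrosine of alpha-tubulin, rose from 4.67 ± 0.533 to 18.8 ± 1.01 CPM in control mice, and in cKO mice it was at 4.92 ± 0.752 and 18.7 ± 2.76 CPM. Its log2 fold changes of 2.01 (SE 0.110, adjusted p 1.73925e-11) and 1.93 (SE 0.110, adjusted p 2.81517e-11, edgeR) exceeded those of Tubb6. Ttll4, a glutamylase that starts glutamate chains on the tails shown above, rose by 0.76 and 0.86 (SE 0.103 for both, adjusted p 6.7362e-06 and 1.37475e-06). Ttll12 fell by 0.34 in control and by 0.26 in cKO mice, and Agbl3, a deglutamylase, fell by 0.24 and by 0.31 on the log2 scale.

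Tubulin folding genes were called in both directions. Of 22 genes, 2 were higher and 3 lower in control mice and 4 higher and 6 lower in cKO mice. The shares over all tested genes were 13.8% higher and 16.0% lower in control mice, and 16.2% and 15.1% in cKO mice. Cct4, a subunit of the chaperonin that folds tubulin, rose from 131 ± 2.12 to 144 ± 3.18 CPM in control mice (log2 0.14, adjusted p 7.61813e-05) and by 0.13 in cKO mice (adjusted p 0.000159, edgeR). Tbcc, a cofactor of tubulin dimer assembly, fell by 0.31 in both genotypes (adjusted p 1.39309e-05 and 1.32974e-05), and Vbp1, a prefoldin subunit, fell by 0.10 and by 0.14.

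Of 24 microtubule-associated proteins, 7 were higher and 5 lower in control mice and 11 higher and 2 lower in cKO mice. Over all tested genes, 13.8% were higher and 16.0% lower in control mice, and 16.2% and 15.1% in cKO mice. Map7d1, of the family that brings kinesin to microtubules, rose from 262 ± 11.4 to 415 ± 21.9 CPM in control mice (log2 0.66) and by 0.71 in cKO mice. Map6, which stabilizes neuronal microtubules, rose from 334 ± 18.1 to 485 ± 3.22 CPM in control mice (log2 0.54) and by 0.59 in cKO mice. Map7 fell by 0.31 and by 0.23, and Dclk2, a doublecortin-like kinase, fell by 0.30 and by 0.29 on the log2 scale.

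Of 7 severing genes, 0 were higher and 4 lower in control mice, and 0 were called in cKO mice in edgeR. At an unadjusted p under 0.05, 0 passed in cKO mice, where 40.6% of all tested genes did. The interaction called 0 of the severing genes and 0.0% of all tested genes, so they were not shown to differ between genotypes. In the gamma-tubulin ring complex, 1 of 8 genes was higher and 3 lower in control mice and 0 higher and 4 lower in cKO mice. Beside both lists, 13.8% of all tested genes were higher and 16.0% lower in control mice, and 16.2% and 15.1% in cKO mice. Tubgcp4 and Tubgcp5, ring subunits, fell by 0.18 each in control and by 0.12 and by 0.14 in cKO mice.

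**Figure D5:**
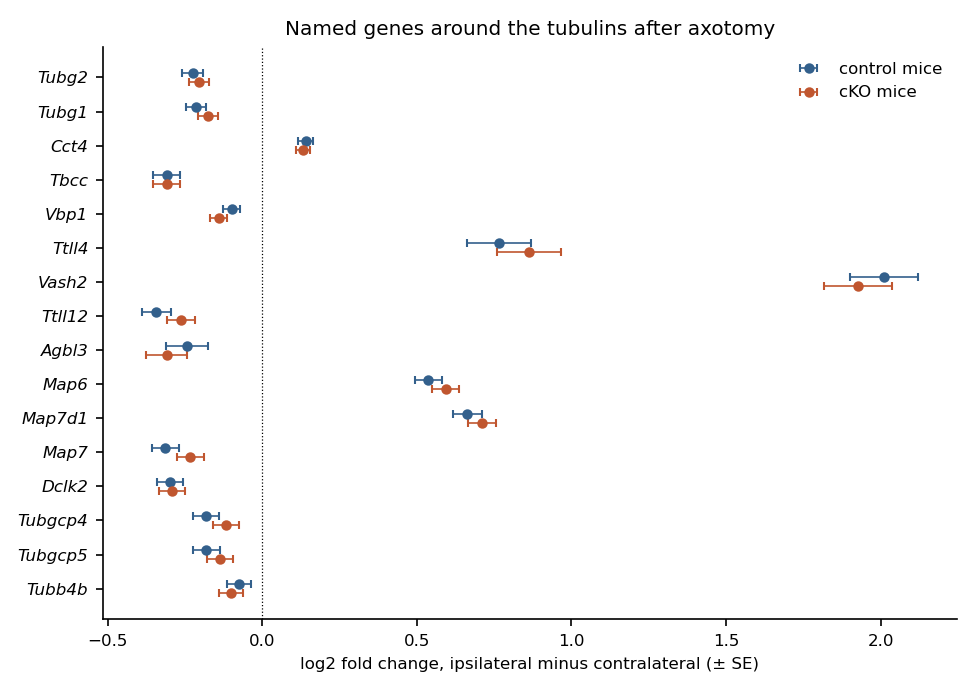
Log2 fold change, ipsilateral minus contralateral, with SE (horizontal axis) for the named genes around the tubulins (vertical axis), in 5 control and 5 cKO mice. Vash2 reaches 2.01 and 1.93, Map7d1 and Map6 lie between 0.54 and 0.71, and Tubg1, Tubg2, Tubgcp4 and Tubgcp5 lie below 0 in both genotypes.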

How the data were processed

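RNA was sequenced from 20 stranded mRNA libraries as paired 150 bp reads, per the labels' protocols. The deposited count table holds the authors' whole-number exonic counts per gene, not normalized. The FPKM table deposited by the authors divides by the whole gene span, introns included, for all 10 members (10592 bases for Tubb3 against 1868 exon bases), so it was used only as an alternative. The submitters' processing notes name HISAT2, Picard, mm10 and mm39 without roles; the counter, annotation, strand setting and multi-mapping rule are not given in the sources used here. Exon lengths, symbols and coordinates came from GENCODE M21 on mm10, matched by identifier.

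Libraries were grouped by genotype and side from the labels (5 each), with 76.2 to 118.5 M counts; 1 shortened title was read through its library name. In 40 pairs of libraries of 1 group the counts gave a chi-square of 5.14 to 56.0 per degree of freedom, far over sampling noise. Genes passing filterByExpr (minimum count 10, minimum total 15; 28564 genes) were fitted over all 20 libraries in edgeR 4.0.16 (R 4.3.3) with TMM factors of 0.975 to 1.04 and the quasi-likelihood test, with Benjamini-Hochberg adjustment over all genes. The 95% intervals use the SE and 16 residual degrees of freedom and are not adjusted. The script was tested on simulated data. Shares are CPM per merged exon kb. No p was computed on shares, sums or correlations (Pearson, log2 CPM with a prior count of 2, Python 3.11.15).

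Contralateral and ipsilateral libraries with the same number came from the same mouse. Their deviations from the group means correlated with a median r of 0.186 (range -0.0546 to 0.361). Alternatives were a replicate block, DESeq2 1.42.0, RLE factors, a filter at a mean CPM of 1, no filter at all, limma 3.58.1 on log2 FPKM with pseudocounts of 1 and 0.1, a covariate for the numbering range of the mice, fits restricted to the compared libraries, and leaving out each mouse. The members and gene lists were chosen with earlier results of these data known. Named beside the members were, per list, the 2 highest and 2 lowest genes called the same way in both injury comparisons with a mean of at least 5 CPM, and the 2 genes most alike to each member. Tubb4b, Tubb2a-ps2, Tube1, Tuba8, Tubb1, Mrc1, Flt1 and Tek fall outside that rule; their values were known when they were named. The coding ends of 4 members are not reported here.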

Additional observations from a re-analysis of the deposited data

Results flagged for a closer look

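In 3 of 100 groups of 5 libraries or mice, 1 library stood apart from the other four by more than Dixon's critical ratio of 0.71; chance flags about 1 group in 20, which is 5 of 100. Tuba4a in the contralateral ganglia of cKO mouse H99 was at 328 CPM, with a gap of 0.787 of the group's range. Tubb2a in the ipsilateral ganglia of cKO mouse H64 was at 534 CPM, the lowest of its group, with a gap ratio of 0.712. Tubb5 in the ipsilateral ganglia of control mouse H97 was at 911 CPM, also the lowest, with a gap ratio of 0.743. Neither Tuba4a nor Tubb5 was called in any comparison, and Tubb2a stayed called in both injury comparisons without H64.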

How the results depend on the processing

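Tubb6, Tubb2b and Tubb2a were called higher in both genotypes, and Tuba1c in control mice, under each of the 19 alternatives run per comparison. With the replicate block (mouse as a paired term) 4 members were called in control and 3 in cKO mice, as without it, and the block changed no member's call. Tuba1c in cKO mice passed with DESeq2, RLE factors, a filter at a mean CPM of 1 or none, and without H63, H64, H97 or H99 (adjusted p 0.0251 to 0.239 over all alternatives). Tuba1a in control mice passed with DESeq2, a mean CPM of at least 1, and without H95 or H97 (0.00957 to 0.294). Tubb3 in control mice passed only without H97. On log2 FPKM plus 1, the Tubb6 change shrank to 1.11 in control and 1.08 in cKO mice.

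In the injury comparisons the sign changed only for uncalled values near 0. On log2 FPKM with pseudocounts of 1 and 0.1, Tubb5 was -0.0112 and -0.0112 in control mice and -0.0226 and -0.0227 in cKO mice, Tuba1a in cKO mice was -0.0247 and -0.0248, and Tubb3 in cKO mice was -0.00566 and -0.00569. Leaving out each mouse gave -0.0582 to 0.000462 for Tuba4a, -0.0554 to 0.0208 for Tubb4a and -0.0164 to 0.0552 for Tubb5 in control mice, and -0.0189 to 0.0283 for Tuba1a and -0.0160 to 0.0238 for Tubb5 in cKO mice. Without a sign change, leaving out each mouse gave -0.0708 to -0.0344 for Tuba4a, 0.00516 to 0.0663 for Tubb4a and 0.00280 to 0.0446 for Tubb3 in cKO mice. For genotype on the contralateral side the count of members ran from 0 to 1, the 1 being Tubb2b without H99. Without H96 the share of Tubb2a was also higher in all remaining mice, and without H64 those of Tuba4a and Tubb4a were lower in all. The cause of these shifts was not tested.

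Counts of called members over all alternatives were 4 to 6 for control mice and 3 to 4 for cKO mice. In mice numbered 61 to 65 and 95 to 100, taken apart, the Tubb6 ratio was 3.24 and 3.05 in control and 3.26 and 2.83 in cKO mice. The spread between 5 mice, the shared sequence of close isotypes and the whole-ganglion RNA limit these results; each member had at least 1198 counts in a library.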
